A study of Homo sapiens with 15 samples.

Results

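The zinc finger genes of chromosome 19 were examined by RNA-seq of HEK-293T, a line derived from human embryonic kidney. Members were selected on 3 properties of a listed gene, namely a position on chromosome 19, a symbol made of ZNF, a number and at most 1 further letter, and a mean of at least 0 log2 RPM (RPM being reads relative to the library's total) over the 15 libraries. This gave 184 members out of 249 chromosome 19 genes with such a symbol and 35805 listed genes in all. Because the mean level chose the members, their levels are given as a description. The members just above the limit were ZNF433, ZNF880 and ZNF382, with means of 0.0304, 0.0756 and 0.125 log2 RPM, and ZNF20, ZNF506 and ZNF737 lay just below it at -0.0974, -0.453 and -0.457. All 184 members passed the filter on low values that preceded testing, which left 16787 genes.

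The study asked which transcripts depend on THAP1, a DNA-binding transcription factor with a THAP-type zinc finger that is mutated in a form of dystonia. The 15 libraries came from 5 groups of 3, in which cells carried sg1-THAP1, sg2-THAP1, sg1-Control or sg2-Control together with Cas9, or were left untransduced. Per the study's text, THAP1 guides were given to reporter cells with GFP placed at the endogenous PSMB5 gene, which also overexpressed PSMB5, a catalytic subunit of the proteasome, and the cells with dim GFP were sorted as a population before RNA was taken. The sources used here do not say whether the control guide and untransduced cells carried the reporter and the extra PSMB5 or passed a sort (the labels give the untransduced cells as wild type), and where they did not, these differences and loss of THAP1 cannot be told apart. The control guides cut within introns, and the 6 libraries of each kind of guide are called sgTHAP1 and sgControl below.

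Most zinc finger genes of chromosome 19 encode C2H2 zinc finger proteins, in which a row of fingers reads DNA. Many also carry an N-terminal KRAB domain, which recruits the corepressor TRIM28 (KAP1) and, through it, the histone methyltransferase SETDB1, HP1 proteins and the NuRD complex, so that bound sites gain H3K9me3. The genes arose by repeated tandem duplication and stand in clusters along the chromosome, and many of their products bind and silence transposable elements.

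Each library held 30645100 to 47754887 reads in sgTHAP1 cells, 31900204 to 56638456 in sgControl cells and 30400148 to 36548569 in untransduced cells. THAP1 itself lay at 5.48 to 5.56 log2 RPM with sg1-THAP1 and 6.06 to 6.18 with sg2-THAP1, against 3.25 to 3.57 in sgControl and 3.36 to 3.46 in untransduced libraries. The transcript of the targeted gene was therefore higher in every THAP1 guide library (log2 fold change over sgControl 2.38 ± 0.11, SE, adjusted p = 6.3e-13), and the THAP1 protein is not part of these data. Of the 12 blood cell markers taken as a sign of other cells, 3 had no read in any library, and the list summed to 0.649 to 1.26 RPM in sgTHAP1, 0.739 to 1.38 in sgControl and 0.428 to 0.684 in untransduced libraries. CD14, a monocyte marker on that list, was higher in sgControl than in untransduced cells (1.87, adjusted p = 3.3e-05) at 19 to 44 reads against 4 to 11. A list of 9 lung and cervical epithelial markers summed to 3.52 to 6.76 RPM in sgTHAP1, 4.12 to 5.95 in sgControl and 6.48 to 8.4 in untransduced libraries, and in it NKX2-1 was lower in sgTHAP1 than in sgControl (-0.81, adjusted p = 0.00797) and lower in sgControl than in untransduced cells (-1.65, adjusted p = 5.4e-05). Of its 4 tested genes, KRT17 went the other way in sgTHAP1 against untransduced cells (2.37, adjusted p = 0.00598), at 3 to 46 reads against 1 to 3. In that comparison CAV1 was lower (-0.55, adjusted p = 0.0273) and ALDH3A1 was not called (-0.04, adjusted p = 0.89). The part of either list in the members' values was not tested. Members took a small share of listed reads, 0.211 to 0.229% in sgTHAP1, 0.229 to 0.241% in sgControl and 0.236 to 0.242% in untransduced libraries. A member had 16 to 10911 reads in a library, with a median of 237. In bulk RNA, less transcript per cell cannot be told apart from fewer cells that express a gene.

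In sgTHAP1 against sgControl cells, which addresses loss of THAP1, the zinc finger genes of chromosome 19 changed individually and in both directions. Of the 184 members, 60 fell and 30 rose at an adjusted p under 0.05 (limma, Benjamini-Hochberg over all 16787 genes), which is 32.6% and 16.3%. Among all genes tested, 32.6% fell and 20.2% rose, so the members' counts lay close to the background. The median log2 fold change was -0.07 over members and -0.06 over all genes. The direction of the group as a whole depended on the scaling, since quantile normalization gave 37 members lower and 52 higher with a median of 0.07, beside a median of 0.02 over all genes. Of all 16787 genes, 4249 were then lower and 4585 higher. Among 224 ZNF genes of other chromosomes 98 fell and 47 rose, with a median of -0.12, and among 801 other genes of chromosome 19 the numbers were 229 and 232, with a median of 0.01.

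At the thresholds used by the study, a change of over 2-fold and an adjusted p under 0.001, 1 member fell and none rose, and that member was ZNF175. All genes passed these thresholds at 1.83% lower and 0.346% higher. Every sgTHAP1 library lay below every sgControl library for 32 members and above every one for 13, against 19.9% and 11% of all genes. For 21 members the 6 sgTHAP1 libraries also lay below all 9 others, and for 8 they lay above all 9 others, beside 12.9% and 7.12% of all genes. The members' shares lay below those of all genes. Members also had lower levels, with a median of 2.44 to 2.87 log2 RPM per library, against 3.87 to 4.21 over all genes tested. The part of level in these shares was not tested.

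ZNF175 (OTK18), a KRAB zinc finger protein first studied as a repressor of HIV-1 transcription in macrophages, fell most. Its levels were 1.57, 1.45 and 1.51 log2 RPM with sg1-THAP1 and 1.25, 1.29 and 1.16 with sg2-THAP1, against 3.07, 2.93 and 3.20 with sg1-Control, 3.28, 3.15 and 2.97 with sg2-Control and 3.17, 3.34 and 3.43 in untransduced cells. No sgTHAP1 library came near the others. The log2 fold change was -1.73 ± 0.09 (SE, adjusted p = 5.7e-12), which left 30.2% of the sgControl level, and both guides gave the fall (-1.56 with sg1 and -1.9 with sg2, each over its own control guide). These values rested on 76 to 107 reads per sgTHAP1 library and 275 to 432 per sgControl library.

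The ZNF175 promoter is shown because it belongs to the member that changed most, beside those of ZNF8 and ZNF507, the other members among the 10 largest falls with separated sgTHAP1 and sgControl libraries that hold the same 7 letters, and of ZNF606, which holds them in 2 places and rose. Sequences are from RefSeq on GRCh38.p14 and run from 250 bases before to 50 after the annotated start, 5′ to 3′ on the strand of the gene. Capitals mark ATGGCGG or its complement, letters of the kind bound by YY1, a zinc finger factor reported to work with THAP1. The letters were chosen after the ZNF175 promoter had been read.
ZNF175, chr19:51571033-51571332, plus strand: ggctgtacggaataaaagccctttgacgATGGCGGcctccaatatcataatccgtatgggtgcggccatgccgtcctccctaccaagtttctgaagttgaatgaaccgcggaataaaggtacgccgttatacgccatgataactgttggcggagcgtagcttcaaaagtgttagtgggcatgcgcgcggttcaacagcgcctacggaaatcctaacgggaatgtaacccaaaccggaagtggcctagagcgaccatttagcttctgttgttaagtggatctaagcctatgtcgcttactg
ZNF8, chr19:58278705-58279004, plus strand: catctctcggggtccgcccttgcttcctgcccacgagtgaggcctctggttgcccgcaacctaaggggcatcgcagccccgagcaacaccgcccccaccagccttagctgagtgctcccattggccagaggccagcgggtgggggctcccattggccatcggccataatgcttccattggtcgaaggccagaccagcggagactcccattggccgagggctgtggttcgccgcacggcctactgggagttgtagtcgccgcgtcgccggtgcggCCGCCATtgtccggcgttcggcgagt
ZNF507, chr19:32345360-32345659, plus strand: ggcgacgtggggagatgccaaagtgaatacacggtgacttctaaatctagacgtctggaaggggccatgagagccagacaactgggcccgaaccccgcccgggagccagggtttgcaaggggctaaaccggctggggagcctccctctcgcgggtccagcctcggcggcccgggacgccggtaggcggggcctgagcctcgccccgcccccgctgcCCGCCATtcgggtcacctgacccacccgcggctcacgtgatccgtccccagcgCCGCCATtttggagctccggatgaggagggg
ZNF606, chr19:58002771-58003070, minus strand: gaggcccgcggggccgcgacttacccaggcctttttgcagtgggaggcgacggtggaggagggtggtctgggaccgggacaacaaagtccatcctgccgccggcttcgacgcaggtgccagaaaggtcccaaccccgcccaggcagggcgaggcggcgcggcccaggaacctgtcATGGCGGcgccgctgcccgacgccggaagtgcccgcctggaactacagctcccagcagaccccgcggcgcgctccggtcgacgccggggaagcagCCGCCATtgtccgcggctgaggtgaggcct
The letters began 222 bases before the RefSeq start of ZNF175, 24 bases after that of ZNF8, and 34 before and 19 after that of ZNF507. The start listed for the gene in the data lay 15, 4 and 16 bases from the RefSeq start of these 3 genes and 529 bases from it for ZNF606.

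ATGGCGG was searched on both strands in the promoters of the 168 members that RefSeq lists, as was TNNNGGCA, the core letters reported for THAP1 binding. ATGGCGG stood in the promoters of 15 members (8.93%), ZNF175 among them, against 5.55% of 35116 RefSeq promoters of the same length. The members were chosen by level and symbol and the 35116 promoters were not, so these shares are not of like genes. Of the 15 members with the letters, 8 fell and 2 rose, with a median log2 fold change of -0.17, and among the 153 members without them 48 fell and 23 rose, with a median of -0.06. Beside these counts and those for TNNNGGCA below, 32.6% of all genes tested fell and 20.2% rose. Genes outside the members that hold the letters were not counted. Without ZNF175, from whose promoter the letters were read, 7 of 14 fell and 2 rose, with a median of -0.17. Under quantile normalization 6 were lower and 4 higher with the letters (median -0.06), and 30 lower and 42 higher without them (median 0.07). ZNF577 and ZNF606 were the members that rose with the letters present. TNNNGGCA stood in 72 member promoters (42.9%), against 41.7% of all promoters, and 20 of those members fell and 9 rose (median -0.06), beside 36 lower and 16 higher among the 96 without it (median -0.08). A match is a description of the letters and shows no binding, and the start in the data can lie away from the RefSeq start, as for ZNF606.

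Besides ZNF175, the largest falls that separated all 6 sgTHAP1 from all 6 sgControl libraries were those of ZNF557, ZNF121, ZNF724P, ZNF417, ZNF8, ZNF536, ZNF587, ZNF507 and ZNF701. ZNF121, which encodes fingers without a KRAB match, was the member with the second highest mean and had 5.71 to 6.13 log2 RPM in sgTHAP1 libraries (median 5.93), against 6.74 to 6.91 in sgControl (median 6.80) and 6.76 to 6.84 in untransduced libraries. Its fall of -0.89 ± 0.07 (SE, adjusted p = 1.5e-09) left 54.1% of the sgControl level. ZNF557, a KRAB gene, had 2.90 to 3.38 log2 RPM (median 3.25) in sgTHAP1, against 4.15 (3.97 to 4.22) in sgControl and 3.62 to 3.77 in untransduced libraries, so that control guide cells stood above untransduced cells and THAP1 guide cells below both. The log2 fold change over sgControl was -0.92 ± 0.07 (SE, adjusted p = 2.9e-09).

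ZNF507 had 5.12 to 5.51 log2 RPM in sgTHAP1 libraries (median 5.36), against 5.98 to 6.14 in sgControl libraries (median 6.07) and 5.84 to 5.90 in untransduced libraries, a fall of -0.72 ± 0.06 (SE, adjusted p = 2.9e-09). ZNF8 had 3.07 to 3.48 log2 RPM (median 3.29) in sgTHAP1, against 3.99 to 4.10 (median 4.04) in sgControl and 4.13 to 4.25 in untransduced libraries, a fall of -0.78 ± 0.06 (SE, adjusted p = 1.9e-09). In both genes no sgTHAP1 library reached the level of any other library. ZNF536, a repressor of neuronal differentiation in rodents, differed in that it was already lower in control guide cells, with 0.82 to 1.23 log2 RPM in sgTHAP1, 1.56 to 2.13 in sgControl and 2.56 to 2.94 in untransduced libraries. Its log2 fold change was -0.75 for sgTHAP1 over sgControl and -1.0 for sgControl over untransduced cells.

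The falls of the remaining genes with separated libraries were -0.81 for ZNF724P, -0.79 for ZNF417, -0.73 for ZNF587 and -0.60 for ZNF701. ZNF699 (-0.91), ZNF805 (-0.78) and ZNF429 (-0.60) also fell, with libraries that overlapped, and were added after their values were seen. ZNF417 and ZNF587 are close paralogs. Of their 50-base words, 35.6% and 24.3% also occur in other ZNF genes, and each of the pair shares most with the other. Reads that fit both cannot be assigned with certainty. ZNF224, a KRAB protein known to repress the aldolase A gene, fell by 0.46 on the log2 scale (adjusted p = 6.3e-07). ZNF274, which recruits SETDB1 to the zinc finger gene clusters themselves, was chosen for that role after its values were seen, and it had 3.97 to 4.15 log2 RPM in sgTHAP1, against 4.21 to 4.37 in sgControl and 4.49 to 4.69 in untransduced libraries. Its log2 fold change was -0.28 for sgTHAP1 over sgControl (adjusted p = 9.3e-05).

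The largest rise was that of ZNF583. This KRAB gene had 1.89 to 2.50 log2 RPM (median 2.22) in sgTHAP1, against 1.13 to 1.72 (median 1.42) in sgControl and 1.18 to 1.73 in untransduced libraries, a rise of 0.77 ± 0.14 (SE, adjusted p = 1.0e-04). ZNF428 had 5.84 to 5.98 log2 RPM (median 5.93) in sgTHAP1, against 5.14 to 5.41 (median 5.35) in sgControl and 5.51 to 5.59 in untransduced libraries, a rise of 0.59 ± 0.04 (SE, adjusted p = 9.1e-10). Both stood above every library without a THAP1 guide. ZNF30 and ZNF792, neighbouring KRAB genes, rose by 0.62 and 0.64 over sgControl, but their sgTHAP1 libraries overlapped the untransduced ones. ZNF792 had 1.11 to 1.52 log2 RPM in sgTHAP1, 0.36 to 1.0 in sgControl and 1.08 to 1.60 in untransduced libraries. The other rises among the 10 largest with separated sgTHAP1 and sgControl libraries were ZNF559 (0.59), ZNF579 (0.42), ZNF576 (0.38), ZNF414 (0.35), ZNF787 (0.32) and ZNF358 (0.32). Rises of ZNF329 (0.67), ZNF44 (0.64), ZNF404 (0.58), ZNF540 (0.55), ZNF433 (0.49), ZNF71 (0.46) and ZNF571 (0.44) passed the test with libraries that overlapped, and these members were added after their values were seen.

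**Figure D1:**
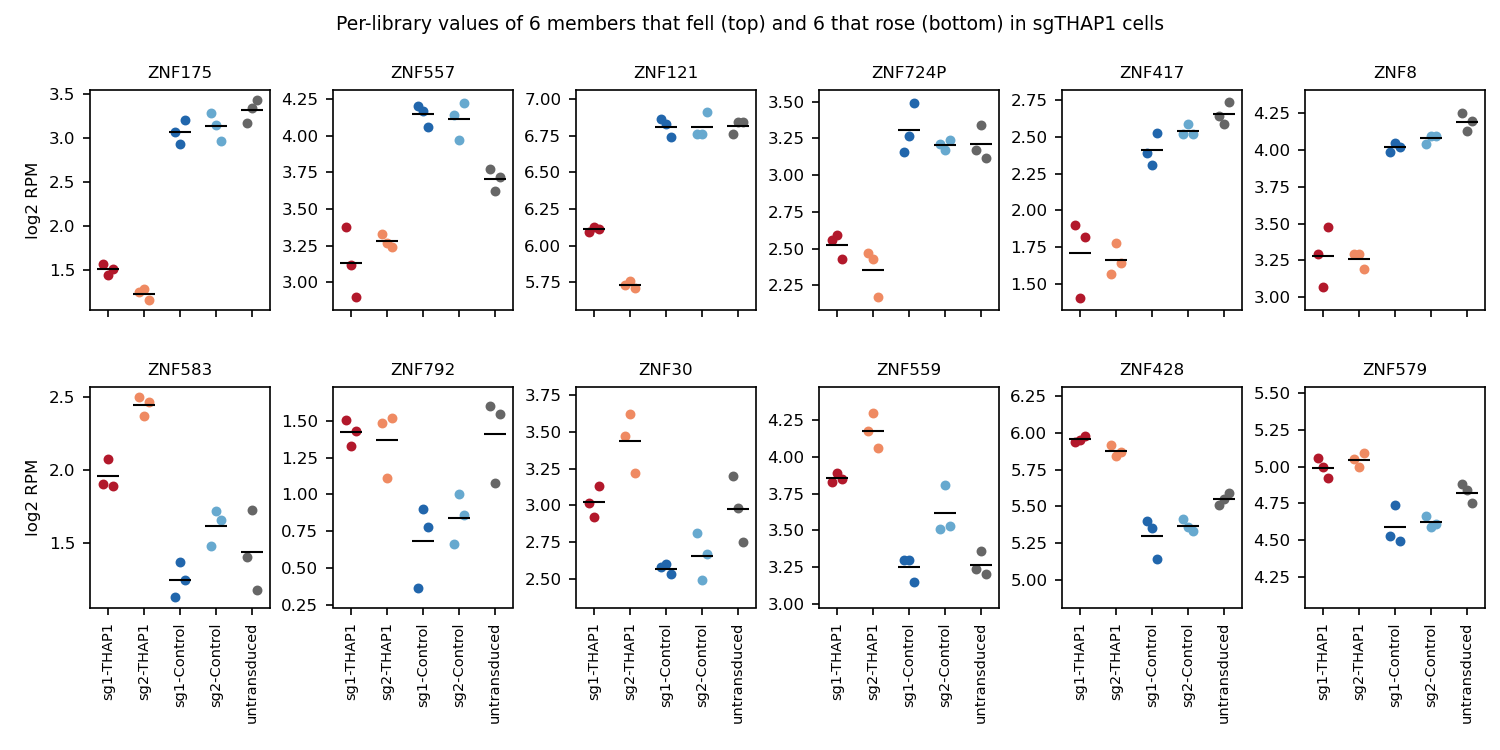
Values of 6 members that fell (top) and 6 that rose (bottom) in sgTHAP1 cells, in log2 RPM, with 1 point per library, a line at the mean of each group of 3, and an axis of its own for each gene. ZNF175 lay at 1.16 to 1.57 in the 6 sgTHAP1 libraries and at 2.93 or more in the 9 others, while the sgTHAP1 libraries of ZNF792 and ZNF30 overlapped the untransduced ones.

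The guides were then compared with their own controls, in comparisons that share no library, although the spread was estimated over all 15. Over sg1-Control, sg1-THAP1 lowered 63 members and raised 30, beside 36.8% and 18.8% of all genes, with a median of -0.12 over members and -0.11 over all genes. Over sg2-Control, sg2-THAP1 lowered 46 and raised 33, beside 27.8% and 23.4% of all genes, with medians of -0.01 and -0.02. Over the 184 members the log2 fold changes of the pairs had a Pearson r of 0.74 and a Spearman rho of 0.71, against a Pearson r of 0.54 over all genes, and 135 members (73.4%) had the same sign, against 72.3% of all genes. These are correlations across genes, which are not independent replicates, and both pairs share the cell line and, for the THAP1 guides, the sort. All genes tested also include genes with a mean under 0 log2 RPM, which the members do not. The part of this difference in the r values was not tested. There were 39 members called lower in both pairs, 21 called higher in both and 0 called in opposite directions, beside 21.3%, 12.4% and 3.12% of all genes.

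**Figure D2:**
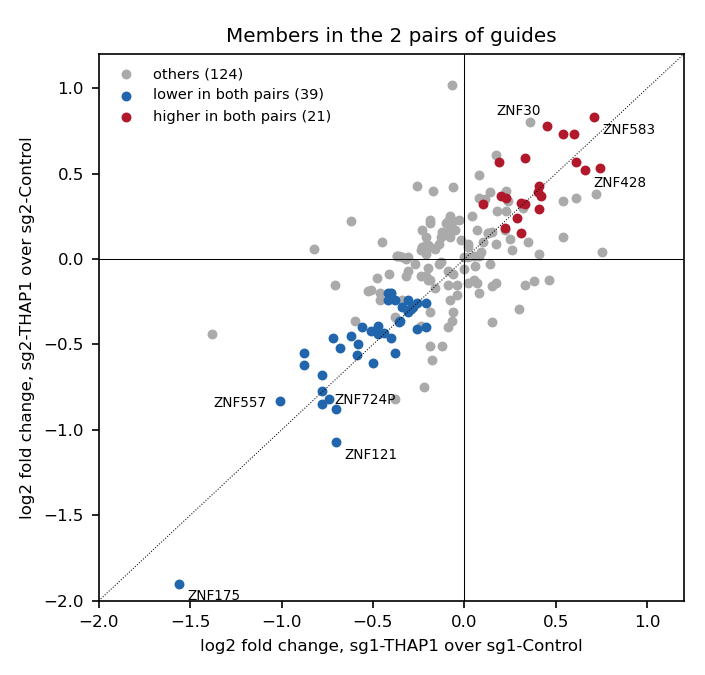
Log2 fold change of each of the 184 members in sg1-THAP1 over sg1-Control (horizontal) and sg2-THAP1 over sg2-Control (vertical), with the dotted line at equal change. The 39 members lower in both pairs and the 21 higher in both are coloured, and ZNF175 lies alone at -1.56 and -1.9.

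The size of the change nevertheless depended on the guide for some members. The difference between the pairs passed the test for 18 members, beside 29.2% of all genes. ZNF121 fell further with sg2 (-1.07) than with sg1 (-0.70), and its sg2-THAP1 libraries at 5.73, 5.76 and 5.71 log2 RPM lay below the sg1-THAP1 libraries at 6.09, 6.13 and 6.11. ZNF507 fell further with sg1 (-0.88) than with sg2 (-0.55). ZNF473, which encodes a factor of histone pre-mRNA 3′ processing, rose with sg2 (0.42, adjusted p = 6.2e-07) and had a log2 fold change of -0.06 with sg1 (adjusted p = 0.434), a difference of 0.48 (adjusted p = 7.3e-05).

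When the THAP1 guides were compared directly, sg2-THAP1 against sg1-THAP1, 53 members were higher and 6 lower, beside 28.3% and 11.7% of all genes. ZNF582 differed most, with 1.46, 1.53 and 1.56 log2 RPM under sg2-THAP1, against 0.11, 0.52 and 0.38 under sg1-THAP1 (log2 fold change 1.19 ± 0.22, SE, adjusted p = 3.3e-05). ZNF331, an imprinted gene, followed at 1.07, with ZNF573 (0.89), ZNF699 (0.84) and ZNF549 (0.70), and the lowest were ZNF321P (-0.67), ZNF837 (-0.54), ZNF121 (-0.37), ZNF480 (-0.35) and ZNF57 (-0.32). The calls of ZNF321P, ZNF837, ZNF57, ZNF573 and ZNF699 were each lost without some single library. Under quantile normalization the split was 28 higher and 14 lower, beside 2962 higher and 3014 lower of all 16787 genes. Between the control guides, sg2-Control against sg1-Control, ZNF559 (0.37) and ZNF587B (0.24) were higher and 0 members lower, beside 1.82% and 2.06% of all genes, and both calls were lost without some single library. The members still leaned to 1 side, with 139 values above 0 and 45 below. Their median was 0.09 (0.10 under quantile normalization), against 0.00 over all genes and 0.01 over ZNF genes of other chromosomes. In limma 2 members were lower and 21 higher at an unadjusted p under 0.05, and voom on recovered reads called 0 lower and 5 higher after adjustment. The shares of all genes at these settings were not computed, so these counts have no background beside them.

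Position along the chromosome was examined in blocks, separated wherever neighbouring members start more than 1 Mb apart. This gave 16 blocks, of which 8 held at least 5 members and together 169 of the 184. Coordinates are those of the data (GRCh38). Beside the counts of every block below, 32.6% of all genes fell and 20.2% rose in sgTHAP1 against sgControl cells. The block of 29 members that starts between 51.57 and 53.52 Mb, which opens with ZNF175, had 16 members lower and 1 higher in sgTHAP1 against sgControl cells, with a median log2 fold change of -0.25. Of its members 23 had a negative value, among them ZNF701 (-0.60), ZNF841 (-0.59), ZNF83 (-0.58) and ZNF845 (-0.55), and ZNF577 alone rose (0.31). Each pair of guides gave the same picture, with 14 lower and 1 higher (median -0.26) for sg1 and 12 lower and 0 higher (median -0.24) for sg2. Of all genes, 36.8% fell and 18.8% rose in the sg1 pair, and 27.8% and 23.4% in the sg2 pair.

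The block of 15 members between 20.92 and 24.03 Mb had 9 lower and 0 higher, with a median of -0.21. ZNF724P (-0.81), ZNF429 (-0.60) and ZNF708 (-0.43) fell most there. ZNF91, a repressor of SVA retrotransposons in primates that was chosen for that role after its values were seen, lay at 2.75 to 3.16 log2 RPM in sgTHAP1, 2.77 to 3.20 in sgControl and 2.92 to 3.0 in untransduced libraries, and its log2 fold change over sgControl was -0.06 (adjusted p = 0.536). The block of 5 members between 34.68 and 34.96 Mb had 3 higher and 0 lower, with a median of 0.33, namely ZNF599 (0.33), ZNF30 (0.62) and ZNF792 (0.64), beside ZNF302 (0.10) and ZNF181 (0.14). All 5 of these were lower in sgControl than in untransduced cells, with a median of -0.60, a comparison that shares the sgControl libraries with the first. The largest block, 50 members between 55.48 and 58.47 Mb, had 12 lower and 13 higher, with a median of 0.01, and held ZNF583, the largest rise, and ZNF417.

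The other blocks with at least 5 members had medians of -0.19 (7.07 to 9.64 Mb, 6 lower and 3 higher of 12), -0.11 (11.48 to 12.61 Mb, 6 and 2 of 16), 0.05 (36.18 to 37.74 Mb, 3 and 5 of 24) and 0.07 (43.60 to 45.07 Mb, 1 and 3 of 18). The medians of the blocks at 51.57, 20.92 and 34.68 Mb kept their sign under quantile normalization, at -0.14, -0.10 and 0.47, with 8 lower and 3 higher, 7 lower and 0 higher, and 0 lower and 5 higher, while that of the block at 11.48 Mb became 0.03. Neighbouring members of a block were somewhat closer than any pair of members, with a median absolute difference of 0.25 over 168 neighbouring pairs and 0.33 over all 16836 pairs, and 57.1% of neighbours and 50.7% of all pairs shared a sign. Tandem neighbours share sequence and may share reads. Other tested genes within the spans numbered 2 in the block at 51.57 Mb (0 lower and 1 higher in sgTHAP1 against sgControl, median 0.29), 3 in that at 20.92 Mb (1 and 0, median -0.23), 37 at 7.07 Mb (14 and 14, median -0.07) and 26 at 55.48 Mb (5 and 11, median 0.18). The blocks at 11.48, 36.18 and 43.60 Mb held 3, 8 and 17 such genes, and that at 34.68 Mb held none.

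**Figure D3:**
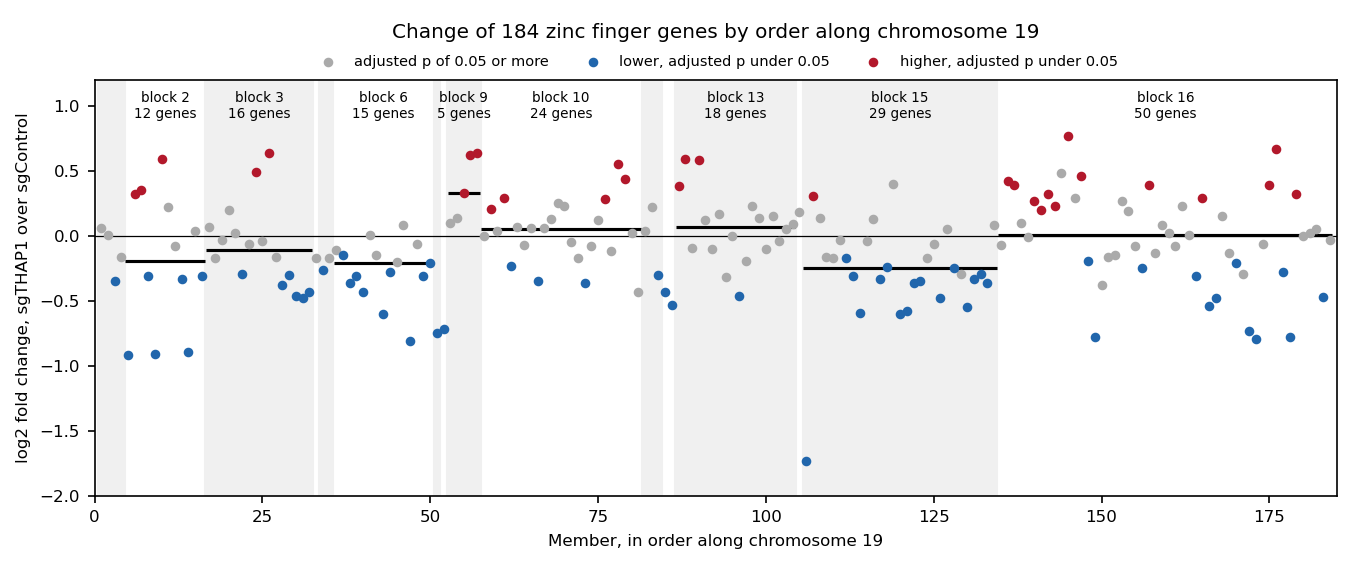
Log2 fold change of sgTHAP1 over sgControl for the 184 members in order along chromosome 19, coloured by the test, with shading for alternate blocks and a black line at the median of each block of at least 5 members. Block 15 (51.57 to 53.52 Mb) and block 6 (20.92 to 24.03 Mb) have medians of -0.25 and -0.21, and block 9 (34.68 to 34.96 Mb) has a median of 0.33.

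By expression level, members were split into 3 bands of 61, 61 and 62 by their mean. In the lowest band, from 0.03 to 2.09 log2 RPM, 13 fell and 12 rose, with a median log2 fold change of 0.00. In the middle band 16 fell and 4 rose (median -0.08), and in the highest, from 3.26 to 7.51 log2 RPM, 31 fell and 14 rose (median -0.16). Under quantile normalization these medians were 0.15, 0.06 and -0.05, so that the order of the bands was the same, while the middle band turned in sign and the highest did not. Depth moved with the bands, with a median of 95 reads and a median SE of 0.14 in the lowest and 624 reads and 0.06 in the highest, and its part in the counts was not tested. All tested genes within the same ranges of level fell at 30.1%, 38.3% and 38.7% and rose at 14.2%, 17.7% and 25.8%, from the lowest to the highest band.

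**Figure D4:**
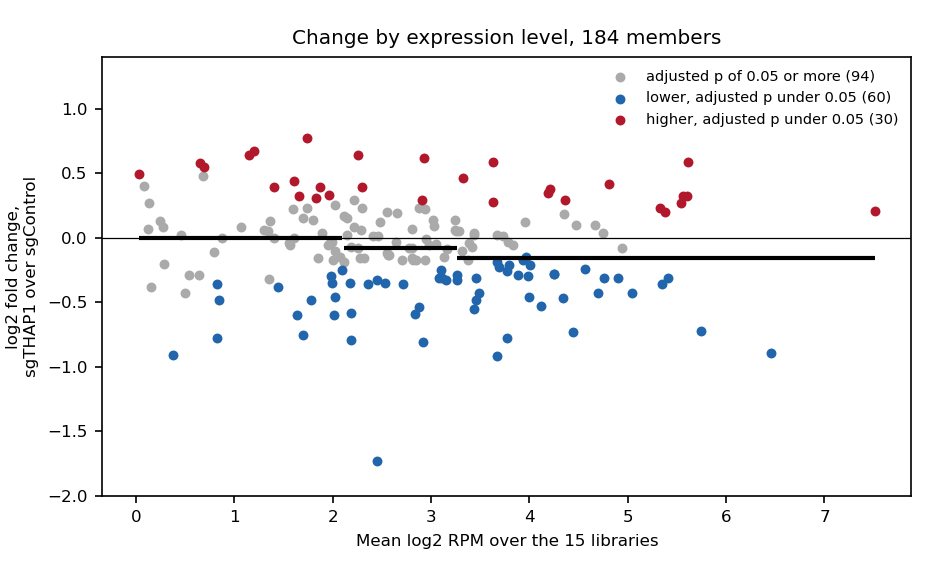
Log2 fold change of sgTHAP1 over sgControl against the mean log2 RPM of the 15 libraries for 184 members, coloured by the test, with black lines at the median of each of the 3 bands of level. The medians are 0.00, -0.08 and -0.16 from the lowest band to the highest, and ZNF175 stands lowest at -1.73.

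The encoded proteins were then used to divide the members. The coding sequences of 182 members could be translated, and 147 matched a pattern for the KRAB A box while 35 did not, although a protein without a match may still hold a diverged domain. Of the 147, 50 fell and 16 rose, with a median of -0.10. Of the 35, 9 fell and 14 rose, with a median of 0.09. Beside these counts and those by number of fingers below, 32.6% of all genes fell and 20.2% rose. Under quantile normalization the counts were 30 lower and 36 higher with the match (median 0.03), and 7 lower and 16 higher without it (median 0.20). Among the 36 members with at most 8 fingers 6 fell and 10 rose (median 0.04), among the 76 with 9 to 13 fingers 29 fell and 11 rose (median -0.12), and among the 70 with 14 or more 24 fell and 9 rose (median -0.09). Under quantile normalization these counts were 6 lower and 15 higher, 17 and 19, and 14 and 18.

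The 14 members with neither a KRAB match nor more than 8 fingers, a combination chosen after the values were seen, had 9 higher and 0 lower, with a median of 0.25, and the counts were the same under quantile normalization. They were ZNF428, ZNF579, ZNF576, ZNF414, ZNF787, ZNF524 (0.39), ZNF580 (0.27), ZNF444 (0.23) and ZNF581 (0.20), beside ZNF653, ZNF296, ZNF784, ZNF837 and ZNF446 at -0.03 to 0.09. ZNF579, for example, had 4.92 to 5.09 log2 RPM in sgTHAP1 (median 5.03), against 4.49 to 4.74 in sgControl (median 4.60) and 4.75 to 4.88 in untransduced libraries. Since this chosen set held no fall, every fall without a KRAB match lay past its limit of 8 fingers by construction. Examples were ZNF121 and ZNF507 with 9 fingers and ZNF536 with 10.

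These 14 genes also differed in other ways that move with the result. Their transcripts had a median GC content of 65.7% and a median length of 1942 bases, against 41.9% and 4089 bases for members with a KRAB match, and their median level was 4.20 log2 RPM, against 2.55. The part of these properties was not tested. GC content and log2 fold change had a Spearman rho of 0.28 over the 35 members without a KRAB match, 0.01 over the 147 with it and 0.13 over all 184 (Pearson r 0.18), as a description across genes that share libraries.

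**Figure D5:**
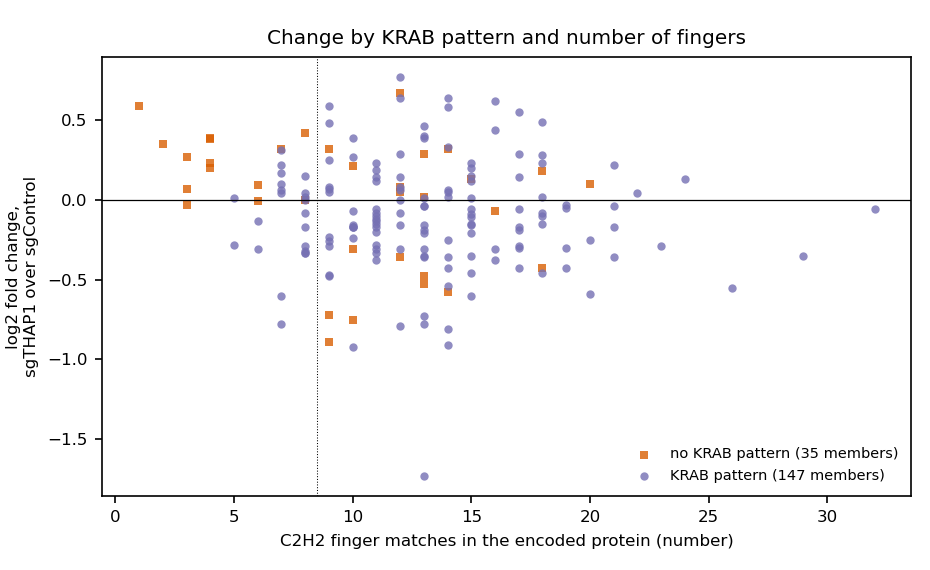
Log2 fold change of sgTHAP1 over sgControl against the number of C2H2 finger matches in the encoded protein, for 147 members with a KRAB pattern (circles) and 35 without (squares), with the dotted line between 8 and 9 fingers. To its left, the 14 squares lie between -0.03 and 0.59.

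The partners of KRAB proteins were examined from lists of known partners. Of 19 corepressor genes 7 fell and 2 rose (median -0.03). TRIM28, the universal KRAB corepressor, lay at 9.51 to 9.64 log2 RPM in sgTHAP1 and 9.46 to 9.60 in sgControl, against 8.75 to 8.81 in untransduced libraries, with a log2 fold change of 0.04 over sgControl (adjusted p = 0.288). SETDB1 had a value of -0.03 (adjusted p = 0.482), whereas CHD3, a NuRD ATPase, fell (-0.63, adjusted p = 1.5e-09), as did the chromatin remodeller SMARCAD1 (-0.32). Of 19 genes of H3K9 methylation and the HUSH complex 8 fell and 5 rose (median -0.02), with the largest falls in ZNF644 (-0.78), a partner of G9a, UHRF1 (-0.55) and the demethylase KDM3A (-0.45). In the same order, ZNF644, UHRF1 and KDM3A were higher in sgControl than in untransduced cells, by 0.85, 0.58 and 0.46. Their sgTHAP1 libraries stood near the untransduced level, with log2 fold changes of 0.07, 0.03 and 0.01 over untransduced cells. Of 10 DNA methylation genes 7 fell and 1 rose (median -0.22), among them the maintenance methyltransferase DNMT1 (-0.31) and the dioxygenase TET2 (-0.72). These shares stand beside 32.6% lower and 20.2% higher among all genes.

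Control guide cells also differed from untransduced cells in many members. In sgControl against untransduced cells 62 members fell and 39 rose, beside 40.5% and 28.1% of all genes, with a median of -0.05 over members and -0.12 over all genes. Quantile normalization moved the median of all genes to 0.00 and gave 26 members lower and 94 higher with a median of 0.26, so no direction can be given for the members together. Of all 16787 genes, 5314 were then lower and 5659 higher. At the thresholds of the study 8 members fell and 0 rose, beside 8.76% of all genes lower and 384 of 16787 genes higher.

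ZNF404, ZNF333, ZNF497, ZNF83 and ZNF546 fell most, by 1.24 to 1.37 on the log2 scale. ZNF333 had 2.47 to 2.85 log2 RPM in sgControl, against 3.88 to 4.05 in untransduced libraries, and stayed at 2.11 to 2.72 in sgTHAP1 libraries. ZNF83 fell in both steps, with 1.38 to 1.71 log2 RPM in sgTHAP1, 1.89 to 2.32 in sgControl and 3.20 to 3.63 in untransduced libraries. ZNF404 changed in opposite directions in these steps, since it was lower in sgControl than in untransduced cells (-1.37) and higher in sgTHAP1 than in sgControl cells (0.58), comparisons that share the sgControl libraries.

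ZNF480 (1.0), ZNF324 (0.96), ZNF136 (0.95), ZNF574 (0.86) and ZNF134 (0.83) rose most in sgControl over untransduced cells. ZNF324 had 4.15 to 4.33 log2 RPM in sgTHAP1, against 4.52 to 4.81 in sgControl and 3.68 to 3.81 in untransduced libraries, and ZNF574 had 4.53 to 4.74, 4.91 to 5.18 and 4.12 to 4.23 in the same order, so both lay between the other groups in sgTHAP1 cells. In sgTHAP1 against untransduced cells 75 members fell and 30 rose, beside 45.5% and 26.9% of all genes, with a median of -0.15 over members and -0.20 over all genes. Under quantile normalization these counts became 30 lower and 105 higher, beside 5524 lower and 6065 higher of all 16787 genes.

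Of the members, 73 overlap another expressed gene, 43 on the same strand and 39 on the opposite one, and whether strand was used in counting is not given in the sources used here. Values of overlapping genes are therefore uncertain, which applies to ZNF559, ZNF428, ZNF576, ZNF358, ZNF536, ZNF587 and ZNF8 among the 10 largest falls and 10 largest rises with separated libraries. The 111 members without an overlap had 35 lower and 17 higher in sgTHAP1 against sgControl cells, with a median of -0.06. At least 20% of the 50-base words of 6 members also occur in other genes, namely ZNF799, ZNF443, ZNF492, ZNF587, ZNF417 and ZNF324, and 4 of these fell.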

How the data were processed

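Polyadenylated RNA of 15 HEK-293T libraries, 3 per group, was sequenced from strand-specific libraries. Per the labels and the study's methods, the authors trimmed reads with cutadapt, aligned them to GRCh38 with HISAT2 and quantified genes in SeqMonk; the sources used here do not give the annotation release or the use of strand. The authors deposited 1 table of log2 values, RPM (reads scaled to each library's total) on a log2 scale, beside means and fold changes of their own that were not used. Whole reads were recovered from the steps between low values (tolerance 0.01 read) and used for depth and for voom only.

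Groups and replicate numbers came from the sample labels. The study describes its replicates as biological. Where they are not separate cultures, p-values measure technical spread only. The pooled tests counted all libraries of sgTHAP1 and of sgControl as independent, although some of them share the same guide. Genes with at least -2 log2 RPM in 3 or more libraries (16787) were then tested by limma 3.58.1 in R 4.3.3, on the log2 values as deposited, without covariates, with Benjamini-Hochberg adjustment over all genes. The authors' methods name no test. Fold changes understate changes of genes with few reads. Named members were those past the study's thresholds, the 10 lowest and 10 highest in sgTHAP1 against sgControl among members called with separated groups and the same sign in both pairs of guides, the 5, 5 and 3 at either end of the other comparisons, the 5 highest means, the ends of each block, and up to 4 genes per partner list. The members and lists were chosen with earlier results of these data known. Finger and KRAB patterns were searched in translated GENCODE 44 coding sequences, promoters in RefSeq. The scripts were tested on simulated data.

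Alternatives were other filters, a pseudocount of 0.5 RPM, quantile normalization, median centring, voom, array weights, a replicate block, single guides, other member limits, block gaps and bands, and each library left out in turn. Same-numbered libraries of different groups showed no shared deviation (r from -0.13 to 0.04 over 30 pairs), and pairs with different numbers had r from -0.13 to 0.23 over 60 pairs. The main tests did not pair libraries by number. These values cannot tell whether same-numbered libraries were handled together.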

Additional observations from a re-analysis of the deposited data

Results flagged for a closer look

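Among 110 groups of 6 libraries of the named members, 7 held a library whose gap to its nearest neighbour was past Dixon's 95% critical share of the group's range, where chance alone gives about 1 in 20 groups. All 7 lay in sgControl: ZNF136 (0.71 of the range, sg2-Control replicate 2), ZNF146 (0.82, sg2-Control replicate 3), ZNF428 (0.70, sg1-Control replicate 3), ZNF497 (0.64, sg2-Control replicate 2), ZNF724P (0.68, sg1-Control replicate 3), ZNF780A (0.65, sg2-Control replicate 3) and ZNF837 (0.70, sg2-Control replicate 1). ZNF146, the member with the highest mean, lay at 7.58 log2 RPM in that library and at 7.47 to 7.49 in the other sgControl libraries.

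The change over the matching control guide differed between the pairs of guides for 6 of the 39 named members tested (limma interaction term). The change with sg2 was lower than with sg1 for ZNF121 (difference -0.37, adjusted p = 1.2e-06). It was higher for ZNF146 (0.23, adjusted p = 7.8e-05), ZNF302 (0.27, adjusted p = 0.0126), ZNF473 (0.48, adjusted p = 7.3e-05), ZNF507 (0.33, adjusted p = 6.0e-05) and ZNF576 (0.38, adjusted p = 0.00224).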

How the results depend on the processing

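Scaling decided the direction of the members as a group. Under quantile normalization the lower and higher calls became 37 and 52 for sgTHAP1 against sgControl, 26 and 94 for sgControl against untransduced (1 past the study's thresholds), 30 and 105 for sgTHAP1 against untransduced, 32 and 50 for sg1-THAP1 against sg1-Control, and 14 and 28 for sg2-THAP1 against sg1-THAP1, with medians of 0.07, 0.26, 0.36, 0.06 and 0.04, and 0.06 for sg2-THAP1 against sg2-Control. Over all 16787 genes the calls in these 5 comparisons were 4249 and 4585, 5314 and 5659, 5524 and 6065, 4310 and 4665, and 3014 and 2962. Block medians became -0.09, 0.03, -0.10, 0.47, 0.15, 0.18, -0.14 and 0.14 along the chromosome, and band medians 0.15, 0.06 and -0.05. Median centring gave 40 and 51, 38 and 62, 42 and 72, 35 and 53, and 17 and 30 calls in the same 5 comparisons, with medians of 0.05, 0.11, 0.12, 0.04 and 0.05, and 0.05 for the sg2 pair. Over all genes it gave 3742 and 5363, 5072 and 6353, 5258 and 6966, 3748 and 5604, and 3737 and 2673. For sgTHAP1 against sgControl the members' median was -0.13 with sg2-Control alone (18 higher), -0.01 with sg1-Control alone, -0.18 and 0.02 with sg1-THAP1 and sg2-THAP1 alone, -0.04 with voom and -0.01 with array weights, which gave -0.09 against untransduced. Past the study's thresholds 2 members fell with either THAP1 guide alone and with a member limit of -1. Without the filter 3 members were lower in sg2-THAP1 against sg1-THAP1, and between control guides 4 were higher with the stricter filter and 5 with voom. With a 2 Mb gap the blocks that hold the blocks at 7.07 and 34.68 Mb had medians of -0.12 and 0.07. The blocks at 51.57 and 55.48 Mb then joined into 1 block, with a median of -0.08. With 2 bands in place of 3 the higher one had -0.12.

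Leaving out each of 15 libraries in turn gave 1 to 2 members past the study's thresholds (2 without sg2-THAP1 replicate 2), 2 to 7 lower in sg2-THAP1 against sg1-THAP1 (2 without sg1-THAP1 replicate 1), 0 to 5 higher between control guides (5 without sg1-THAP1 replicate 1, 1 without sg1-Control replicate 1 or 2 or sg2-Control replicate 2 or 3, and 0 without sg1-Control replicate 3), and medians of -0.10 to -0.04, -0.09 to -0.04, -0.17 to -0.11 and -0.04 to -0.01 for sgTHAP1 against sgControl, sgControl against untransduced, sgTHAP1 against untransduced and the sg2 pair. With the replicate number as a block 56 members fell and 30 rose in sgTHAP1 against sgControl, and no count moved by over 1.5 times. Of 52 results for named members 42 kept their call in every alternative run, and 38 of 1356 values lost it with none reversed. Low members rest on few reads, down to 16 in a library, and changes of their size may not have been detectable. The causes of these shifts were not tested.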
